A study of Mus musculus with 50 samples.

Results

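Chemokines and their receptors were followed in non-tumour liver and liver tumours of C3H/He mice. The members were all rows of the count table whose gene symbol begins with Ccl, Ccr, Cxcl, Cxcr, Xcl, Xcr, Cx3cl, Cx3cr or Ackr followed by a digit, and that held 10 or more counts in at least 5 of the 49 libraries other than T1. Of 45792 rows, 61 carried such a symbol and 42 met the count minimum. They were 26 ligands (13 CC, 11 CXC and 2 of the CX3C and XC types), 12 signalling receptors and 4 atypical receptors. The 19 rows outside the members include Ccl19, Ccl21a, Ccl17, Ccr4, Ccr6, Ccr8 and Cxcr5, so several ligands described here had no measured partner.

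The study asked how the ALIOS (American lifestyle) diet, rich in trans fat with fructose in the drinking water, relates to liver disease and tumours in male C3H/He mice, a strain prone to liver cancer. Libraries came from tissue at 48 weeks, from 12 non-tumour livers on the control diet (N1 to N12) and 11 on the ALIOS diet (N13 to N23). Tumours without carcinogen, called spontaneous here, numbered 13 from ALIOS mice and 1 from a control diet mouse (T7). Tumours of mice given the liver carcinogen DEN (diethylnitrosamine) numbered 8 from ALIOS mice and 5 from control diet mice. No non-tumour liver of DEN-treated mice was analysed here, so DEN and tumour cannot be told apart in comparisons with liver, and the labels do not say which libraries came from the same mouse. If samples share a mouse, the p-values below measure the spread between samples rather than between animals.

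Chemokines are small secreted proteins that direct the movement of leukocytes along gradients. They act through receptors coupled to inhibitory G proteins, while atypical receptors bind the same ligands without that signal and take them up. In liver, Kupffer cells, sinusoidal endothelium, stellate cells and hepatocytes all release chemokines, and the receptors sit mainly on monocytes, T cells, NK cells, neutrophils and dendritic cells. A bulk library adds these cells together, so fewer cells of a type and less RNA per cell cannot be told apart.

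The total count ranged from 23798251 to 45751398 per library. T1, labelled as an ALIOS tumour, held 24.6 CPM (counts scaled to 1000000 per library) of the hepatocyte gene Alb against 48070 or more in every other library, and 22980 CPM of the kidney gene Kap against at most 4.77. It was left out of all values below, which leaves 12 ALIOS spontaneous tumours. The other libraries carried the hepatocyte markers of their label, with summed levels of 8 markers from 75130 to 225700 CPM. All CPM values are scaled by TMM, the trimmed mean of M values.

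Per kilobase of exon, the control livers expressed Cxcl12 most, with a median of 48.5 CPM per kb, followed by Ccl9 (38.4), Cxcl1 (8.97), Ccl6 (3.71), Cxcl9 (2.32) and Cxcl16 (2.27). The ranges of Cxcl12 (41.6 to 65.4) and Ccl9 (22.5 to 60.0) overlapped, and so did those of Ccl6, Cxcl9 and Cxcl16. Cxcl12 guides lymphocytes and stem cells through Cxcr4. Ccl9 and Ccl6 are mouse CC ligands of Ccr1, and Cxcl1 is a neutrophil attractant. In the 4 tumour groups Ccl9 ranked first, at medians of 35.6 to 38.2 CPM per kb, and Cxcl12 ranked below it, Cxcl1 and in some groups Cxcl9, at 12.6 to 20.0 CPM per kb. Cxcl14 was among the 6 highest in each tumour group, at 5.37 to 10.8 CPM per kb, against 0.492 in control livers and 0.407 in ALIOS livers.

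The promoters of 5 ligands that the results turn on are shown here, each as the 250 bases before the RefSeq start site in GRCm38.p6, written 5′ to 3′ on the strand of the gene. They let the ligands that respond to interferon be set beside those that were higher or lower in tumours. The windows are chr5:92348890-92349139 (minus strand) for Cxcl10, chr5:92328080-92328329 (minus strand) for Cxcl9, chr13:56296552-56296801 (minus strand) for Cxcl14, chr5:95956689-95956938 (plus strand) for Cxcl13 and chr6:117168285-117168534 (plus strand) for Cxcl12. Capitals mark matches to the searched motifs.
Cxcl10: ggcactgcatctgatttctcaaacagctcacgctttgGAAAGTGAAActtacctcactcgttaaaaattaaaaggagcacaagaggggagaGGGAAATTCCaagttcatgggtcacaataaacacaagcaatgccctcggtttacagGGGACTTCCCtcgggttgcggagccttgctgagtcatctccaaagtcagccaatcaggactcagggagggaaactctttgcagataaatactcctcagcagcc
Cxcl9: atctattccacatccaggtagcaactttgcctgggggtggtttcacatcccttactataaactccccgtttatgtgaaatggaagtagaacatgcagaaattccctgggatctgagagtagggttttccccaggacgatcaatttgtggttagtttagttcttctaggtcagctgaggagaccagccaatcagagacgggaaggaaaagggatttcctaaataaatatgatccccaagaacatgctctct
Cxcl14: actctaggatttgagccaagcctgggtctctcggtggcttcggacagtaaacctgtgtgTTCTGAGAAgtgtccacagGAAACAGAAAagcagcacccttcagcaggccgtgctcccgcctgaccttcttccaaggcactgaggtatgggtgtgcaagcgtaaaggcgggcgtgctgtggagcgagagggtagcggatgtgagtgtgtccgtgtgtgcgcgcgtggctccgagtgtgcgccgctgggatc
Cxcl13: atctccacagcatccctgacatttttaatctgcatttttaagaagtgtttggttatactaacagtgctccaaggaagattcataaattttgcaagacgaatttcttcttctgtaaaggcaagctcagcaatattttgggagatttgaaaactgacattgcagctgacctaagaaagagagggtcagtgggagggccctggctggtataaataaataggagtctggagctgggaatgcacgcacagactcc
Cxcl12: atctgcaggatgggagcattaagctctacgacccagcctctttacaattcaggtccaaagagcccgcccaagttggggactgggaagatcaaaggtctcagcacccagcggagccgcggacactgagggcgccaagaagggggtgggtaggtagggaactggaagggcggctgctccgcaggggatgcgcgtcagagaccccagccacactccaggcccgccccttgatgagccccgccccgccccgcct

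Both strands were searched for 3 motifs: the core of the interferon-stimulated response element (GAAA, any 2 bases, GAAA), the STAT site called GAS (TTCNNNGAA) and the NF-kB site. The response element core stood in 2.98% of all 32851 RefSeq promoter windows of this length, and among members in those of Cxcl10 (213 to 204 bases before the start) and Cxcl14 (172 to 163 before it). GAS letters stood in 7.02% of windows, and among members in that of Cxcl14 (191 to 183 bases before the start). The NF-kB letters stood in 3.9% of windows and in those of 7 members: Ackr2, Ccl20, Ccl9, Ccr3, Cxcl1, Cxcl10 and Cxcl2. The windows of Cxcl9, Cxcl12 and Cxcl13 held none of the 3 within these bases, and no matches in the printed windows overlapped. RefSeq windows were matched for 31 of the 42 members.

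Members often lay side by side. By the rule that neighbouring members lie less than 1000000 bases apart, 23 of the 42 fell into 6 clusters. The CC ligands formed 2 clusters on chromosome 11, chr11:82035571-82116799 with Ccl2, Ccl7 and Ccl8 and chr11:83525778-83664683 with Ccl5, Ccl9, Ccl6, Ccl3 and Ccl4. On chromosome 5, the neutrophil attractants Cxcl5, Cxcl1 and Cxcl2 lay at chr5:90759360-90905938, and the interferon-inducible Cxcl9, Cxcl10 and Cxcl11 at chr5:92321347-92365485. Neighbours did not always move together, as the values of Ccl5, Ccl6 and Ccl9 below show.

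In the comparison of diets in non-tumour liver, the question was which members differ between ALIOS and control livers without a tumour. The T cell and monocyte attractant Ccl5 and the fractalkine receptor Cx3cr1 were among the members higher on the ALIOS diet, and Cxcl12 was lower. That was 3 higher and 1 lower of 26 members tested, with edgeR's quasi-likelihood test at an adjusted p under 0.05, while 11.2% of all 13723 genes tested were called (6.73% higher and 4.51% lower). The median log2 fold change of the members was 0.20, against -0.02 over all genes.

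Tumours were compared with livers on the same diet. In ALIOS spontaneous tumours 7 members were higher and 4 lower of 32 tested, where 52.8% of all genes tested were called (26.9% higher and 25.9% lower). In ALIOS DEN tumours 10 were higher and 3 lower of 35, where 47.5% of all genes were called (27.7% higher and 19.8% lower). In control diet DEN tumours 13 were higher and 4 lower of 31, where 51.7% of all genes were called (27.3% higher and 24.4% lower). The shares of tested members called were 34.4%, 37.1% and 54.8%, which are near or under those of all genes, so the counts are no result about chemokines as a family. The median log2 fold changes of the members were 0.37, 0.34 and 0.78, against 0.01, 0.08 and 0.03 over all genes. The ALIOS comparisons share their 11 livers, and the diet comparison shares livers with all 3.

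**Figure D1:**
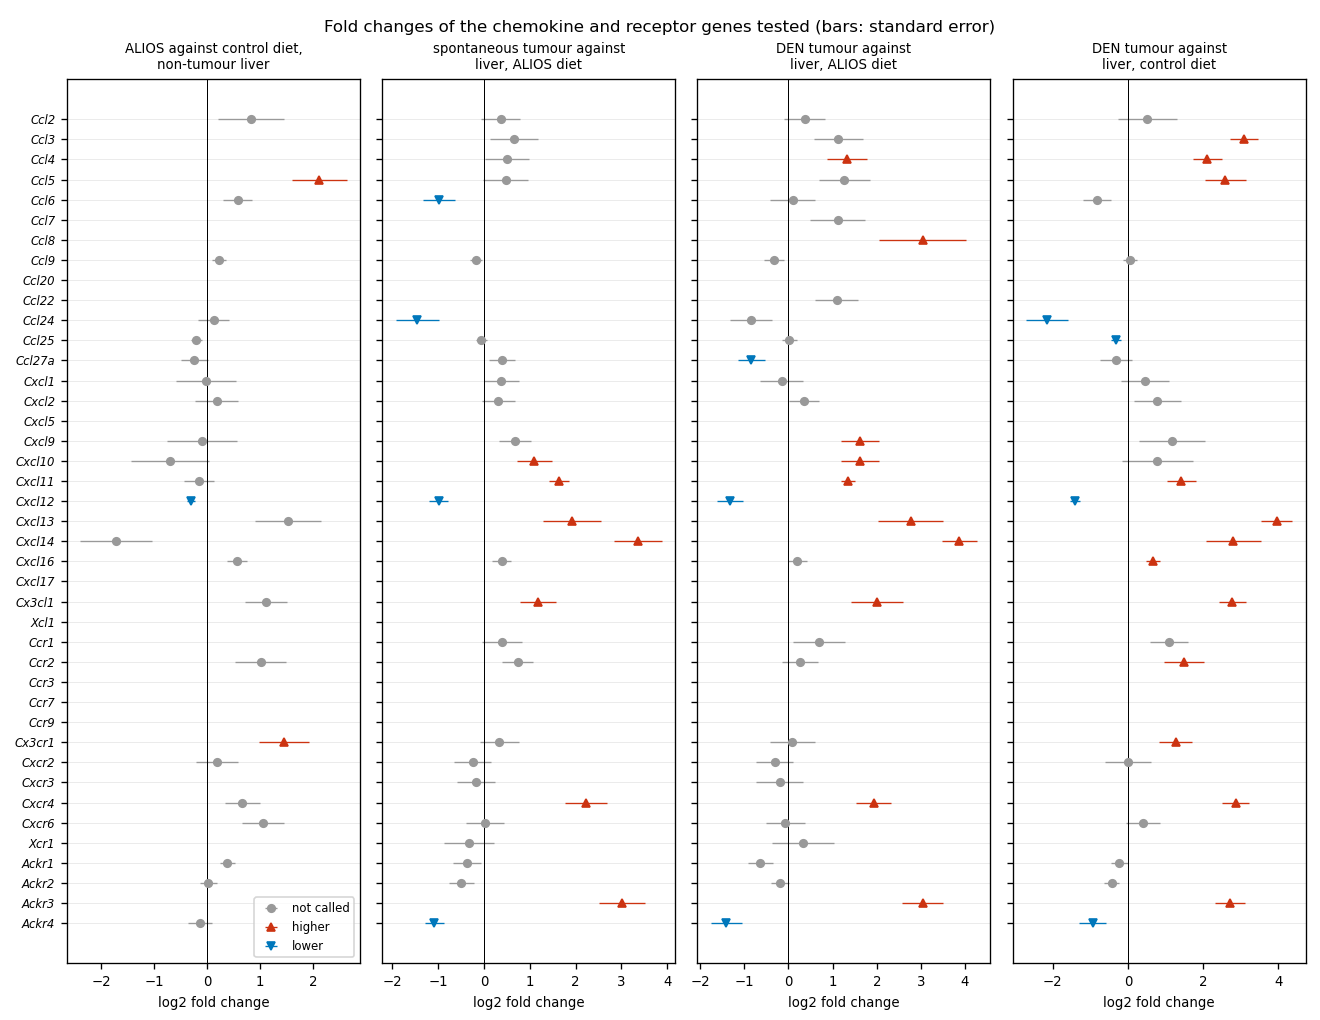
Log2 fold change (x axis, with standard error as the bar) of each tested member (y axis) in 4 comparisons, 1 panel each. Upward triangles are members called higher, downward triangles members called lower and grey points members not called at an adjusted p of 0.05. Cxcl14, Ackr3 and Cxcr4 lie to the right and Cxcl12 and Ackr4 to the left in all 3 tumour panels. Rows with no point were not tested, 1 tested member is left out, and Cxcl17 is not drawn because its livers were at or near 0 counts.

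Cxcl14, a CXC ligand made by epithelia and fibroblasts, was higher in all 3 tumour comparisons. Control livers ranged from 0.182 to 14.7 CPM with a median of 0.900, and ALIOS livers from 0.141 to 2.53 with a median of 0.743. ALIOS spontaneous tumours ranged from 0.719 to 24.4 CPM (median 9.81), and ALIOS DEN tumours from 5.76 to 20.8 (median 13.6). Most tumours were above the livers, as 9 of 12 spontaneous and 8 of 8 DEN tumours exceeded every ALIOS liver. The log2 fold changes of Cxcl14 were 3.36 ± 0.52 (SE, adjusted p = 1.38e-05, edgeR) in spontaneous tumours and 3.87 ± 0.40 (adjusted p = 4.74e-07, edgeR) in DEN tumours. DEN tumours of control diet mice (T17 to T21) held 17.6, 19.5, 21.3, 17.6 and 27.4 CPM, all above every control liver, even though the livers N7 and another reached 14.7 and 11.4 CPM. Their log2 fold change was 2.81 ± 0.74 (adjusted p = 0.00354, edgeR). T7 held 19.8 CPM. Diet alone gave Cxcl14 a log2 fold change of -1.72 ± 0.67 in liver, which was not called (adjusted p = 0.0933, edgeR).

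Cxcl13, which draws B cells through Cxcr5 (a receptor under the count minimum), was also higher in all 3 tumour comparisons. Control livers ranged from 0 to 0.882 CPM (median 0.354) and ALIOS livers from 0.159 to 7.79 (median 0.458), where N19 was highest and the next liver held 1.30 CPM. Spontaneous tumours on the ALIOS diet ranged from 0.568 to 12.4 CPM (median 2.98), DEN tumours on that diet from 1.04 to 16.7 (median 8.11), and T7 held 10.9 CPM. Both tumour groups overlapped the ALIOS livers, also with N19 set aside, since T2 and T24, the lowest of each, lay below the second-highest liver. Of these tumours, 12 of 12 spontaneous and 8 of 8 DEN tumours were above the liver median. The log2 fold changes of Cxcl13 were 1.91 ± 0.64 (adjusted p = 0.0144, edgeR) and 2.77 ± 0.74 (adjusted p = 0.00469, edgeR). T17 to T21 held 10.2, 6.46, 4.05, 6.13 and 3.59 CPM, all above every control liver (log2 fold change 3.96 ± 0.42, adjusted p = 2.23e-07, edgeR). No gene of the B cell marker list was called in a tumour comparison, and its summed level was 2.30 to 3.46 CPM in control diet DEN tumours and 0.873 to 4.98 in control livers.

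Cxcl17, a ligand best known from mucosal tissue, was close to absent from liver. Its 12 control livers held 1 count in all, 11 of them at 0, and the 11 ALIOS livers held none. In the order T17 to T21, the control diet DEN tumours held 28.1, 8.88, 14.2, 5.04 and 0.784 CPM, 1776 counts in all, and T7 held 10.8 CPM. Every one of them was above every liver. Against the single control liver count, the ratio of scaled counts was 3640, with an exact 95% interval of 652.5 to 143900 that covers counting error only. On the ALIOS diet, 11 of 12 spontaneous tumours (0 to 8.38 CPM, median 0.607) and 6 of 8 DEN tumours (0 to 3.78 CPM, median 0.349) held counts. Against a floor of 3 counts over the 11 livers, these were at least 152.1-fold and at least 89.0-fold higher. ALIOS DEN tumours were below control diet DEN tumours in 6 of 8 cases for Cxcl17, yet with a log2 fold change of -3.75 ± 1.10 this was not called (adjusted p = 0.347, edgeR).

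Cxcl9, Cxcl10 and Cxcl11 are interferon-inducible ligands of Cxcr3, the receptor of activated T cells and NK cells, and their control liver values turn on 1 library. The control liver N6 held 270.0 CPM of Cxcl9, 52.5 of Cxcl10 and 20.0 of Cxcl11, while the next highest control livers held 46.4, 1.87 and 9.09 and the medians were 7.002, 1.28 and 4.74. ALIOS livers had medians of 31.6 CPM for Cxcl9, 3.21 for Cxcl10 and 5.11 for Cxcl11. N6 was thus the highest of all 23 livers for each. It was also the highest of the control livers for Ccl2 (8.55 CPM, next 1.02) and for the summed neutrophil markers (19.3 CPM, group median 3.94), whose part in the result was not tested.

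With N6, the diet comparison gave Cxcl9 a log2 fold change of -0.10 ± 0.66 (adjusted p = 0.94, edgeR) and Cxcl10 one of -0.70 ± 0.74 (adjusted p = 0.557, edgeR). Without N6, the values were 1.42 ± 0.42 (adjusted p = 0.0297, edgeR) and 1.55 ± 0.35 (adjusted p = 0.0079, edgeR), both called higher. DESeq2 with N6 among the libraries also called both higher, at 1.34 (adjusted p = 0.0147) and 1.46 (adjusted p = 0.000544). By default, however, DESeq2 replaces outlying counts in larger groups, and whether those of N6 were replaced was not recorded. Its values lie near those of edgeR without N6, so they are not separate support with the counts of N6 included. Without N6 Ccl2 went from 0.83 to 2.02 (adjusted p = 0.0103, edgeR), and Cxcl16 and Cxcr6 were called as well, at 0.65 (adjusted p = 0.0236, edgeR) and 1.21 (adjusted p = 0.0483, edgeR). Cx3cr1 was lost (adjusted p = 0.0597, edgeR). Without N6 the diet comparison thus held 7 higher and 1 lower of 24 members, with 12.2% of all genes called.

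In ALIOS tumours, Cxcl11 did not overlap the livers. ALIOS livers held 4.09 to 7.91 CPM, and spontaneous tumours held 8.52 to 29.9 (median 15.7) and DEN tumours 8.23 to 20.96 (median 12.96). Every tumour was above every liver, and the log2 fold changes of Cxcl11 were 1.65 ± 0.22 (adjusted p = 1.99e-06, edgeR) and 1.35 ± 0.16 (adjusted p = 2.35e-06, edgeR). T7 held 6.52 CPM, within the range of the livers. T17 to T21 held 14.4, 11.9, 17.01, 25.7 and 10.5 CPM, of which 1 exceeded N6 and all exceeded the next highest control liver (log2 fold change 1.42 ± 0.39, adjusted p = 0.00482, edgeR).

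Cxcl10 held 0.527 to 7.55 CPM in ALIOS livers, 1.80 to 14.04 in spontaneous tumours (median 6.87) and 3.93 to 26.5 in DEN tumours (median 7.74). The groups overlapped, with log2 fold changes of 1.09 ± 0.38 (adjusted p = 0.0198, edgeR) and 1.62 ± 0.43 (adjusted p = 0.0043, edgeR). The call in spontaneous tumours was lost with all groups in 1 fit (1.09, adjusted p = 0.127, edgeR) and with the spontaneous tumours of both diets set against all livers (0.67, adjusted p = 0.271, edgeR). Unlike the comparison as first fitted, both of these fits hold the control livers, N6 among them. The part of N6 in these losses was not tested. Cxcl9 was called in the ALIOS DEN tumours, at 1.61 ± 0.43 (adjusted p = 0.00439, edgeR), with 32.4 to 284.2 CPM (median 69.7), and had 0.67 ± 0.35 (adjusted p = 0.105, edgeR) in spontaneous tumours, where it was called without N17 (0.91) or T5 (0.81). In T17 to T21 Cxcl9 stood at 139.6, 89.4, 81.6, 30.1 and 26.8 CPM and Cxcl10 at 10.8, 10.6, 7.71, 5.01 and 11.8 CPM. All 5 were above the second-highest control liver for Cxcl10. Neither was called by edgeR with N6, at 1.18 ± 0.88 for Cxcl9 (adjusted p = 0.273, edgeR) and 0.79 ± 0.94 for Cxcl10 (adjusted p = 0.51, edgeR). DESeq2 with N6 among the libraries, where outlying counts can be replaced by default, called Cxcl10 higher, at 2.82 (adjusted p = 6.34e-17), but not Cxcl9. That Cxcl10 value lies near the edgeR value without N6 given next, so it is not separate support with the counts of N6 included. Without N6, a refit chosen after its counts were seen, both were called, at 2.69 (adjusted p = 0.000188, edgeR) and 3.03 (adjusted p = 2.06e-08, edgeR), and members called were 17 higher and 4 lower of 31 with 52% of all genes called. The exons of Cxcl10 overlap those of Art3 and the exons of Cxcl11 those of Gm2673, and as the strand setting of the counting is not given in the sources used here, these counts are uncertain. Cxcr3 itself was low, with medians of 0.185 to 0.546 CPM over the groups of several libraries, and was not called in the comparisons as first fitted. With diet it passed the filter and was called higher without N13 (1.26, adjusted p = 0.019, edgeR) or N14 (1.21, adjusted p = 0.0476, edgeR).

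**Figure D2:**
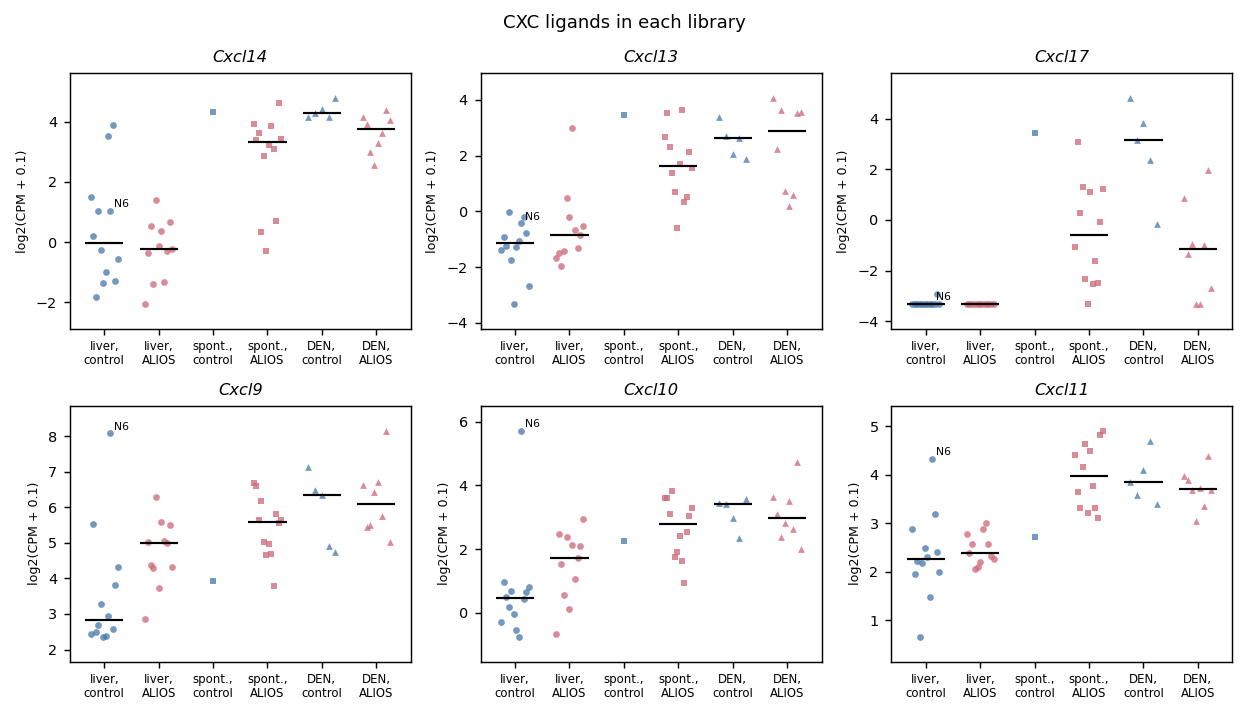
Levels of Cxcl14, Cxcl13, Cxcl17, Cxcl9, Cxcl10 and Cxcl11 in the 6 groups (x axis), 1 point per library, as log2(TMM-scaled CPM + 0.1) (y axis), with a bar at the median of each group of several libraries, control diet in blue, ALIOS in red and T1 left out. Tumour points of Cxcl14 and Cxcl11 lie above nearly all ALIOS livers, and the labelled control liver N6 stands at the top of the livers for Cxcl9, Cxcl10 and Cxcl11.

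Cxcl12 and the genes that bind it moved in opposite directions in tumours. The ligand fell while its receptor Cxcr4 and the scavenging receptor Ackr3, which removes Cxcl12 and Cxcl11, rose in all 3 tumour comparisons. Control livers held 340.2 to 534.4 CPM of Cxcl12 and ALIOS livers 282.1 to 373.6, a log2 fold change with diet of -0.31 ± 0.08 (adjusted p = 0.0132, edgeR), and 6 of 11 ALIOS livers lay below every control liver. Spontaneous tumours on the ALIOS diet held 58.5 to 298.8 CPM (median 145) and DEN tumours on that diet 26.7 to 263.7 (median 103). Of these, 10 of 12 and 8 of 8 lay below every ALIOS liver, with log2 fold changes of -0.99 ± 0.21 (adjusted p = 0.000369, edgeR) and -1.33 ± 0.29 (adjusted p = 0.000959, edgeR). The tumours T17 to T21 held 137.4, 120.7, 158.8, 127.9 and 179.3 CPM, all below every control liver (log2 fold change -1.41 ± 0.13, adjusted p = 2.98e-08, edgeR). T7 held 163.2 CPM, also below every liver.

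Cxcr4, the receptor through which Cxcl12 retains leukocytes and progenitors, held 0.318 to 2.14 CPM in ALIOS livers (median 0.710). It held 0.871 to 17.9 CPM in ALIOS spontaneous tumours (median 2.77) and 0.649 to 7.02 in ALIOS DEN tumours (median 3.18). Every spontaneous tumour and 7 of 8 DEN tumours were above the liver median, with some overlap, and the log2 fold changes of Cxcr4 were 2.22 ± 0.46 (adjusted p = 0.000299, edgeR) and 1.93 ± 0.39 (adjusted p = 0.000497, edgeR). In T17 to T21 it stood at 5.25, 7.62, 2.22, 2.23 and 2.63 CPM, all above every control liver, of which the highest held 1.83 (log2 fold change 2.87 ± 0.36, adjusted p = 2.1e-06, edgeR). T7 held 2.05 CPM.

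Ackr3 held at most 0.366 CPM in ALIOS livers and 0.561 in control livers. Spontaneous tumours on the ALIOS diet held 0.287 to 5.21 CPM (median 1.04) and DEN tumours on that diet 0.208 to 2.49 (median 1.04), so 11 of 12 and 7 of 8 exceeded every ALIOS liver. The log2 fold changes of Ackr3 were 3.02 ± 0.50 (adjusted p = 3.18e-05, edgeR) and 3.04 ± 0.47 (adjusted p = 3.53e-05, edgeR). Tumours T17 to T21 held 1.83, 2.45, 0.718, 0.763 and 1.06 CPM, all above every control liver (log2 fold change 2.72 ± 0.39, adjusted p = 9.85e-06, edgeR). T7 held 1.72 CPM.

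Ackr4, the atypical receptor that takes up Ccl19, Ccl21 and Ccl25, went the other way. ALIOS livers held 0.476 to 1.36 CPM, spontaneous tumours 0.202 to 0.763 and DEN tumours 0.0537 to 0.833, with 8 of 12 and 6 of 8 below every ALIOS liver. The log2 fold changes of Ackr4 were -1.08 ± 0.22 (adjusted p = 0.000213, edgeR), -1.41 ± 0.35 (adjusted p = 0.00294, edgeR) and, in control diet DEN tumours, -0.94 ± 0.36 (adjusted p = 0.0352, edgeR). The last was lost when T18 or T19 was left out, at -0.76 and -0.81 (adjusted p = 0.101 and 0.0907, edgeR). The exons of Ackr4 overlap those of Acad11 on the other strand, so its counts are uncertain in the same way as those of Cxcl10. Ackr1 and Ackr2, chosen for mention after their values were seen, were called in none of the comparisons as first fitted (edgeR, TMM scaling, low counts filtered). In ALIOS DEN tumours Ackr1 was called lower with RLE size factors (-0.67, adjusted p = 0.049, edgeR), by DESeq2 (-0.68, adjusted p = 0.0294) and without T24, T25 or T26 (-0.47, -0.72 and -0.82). With diet it was called higher without N9, N10 or N13 (0.43, 0.44 and 0.42). Ackr2 was called lower in control diet DEN tumours by DESeq2 (-0.45, adjusted p = 0.0462) and without T19, T20 or N6 (-0.57, -0.55 and -0.48).

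**Figure D3:**
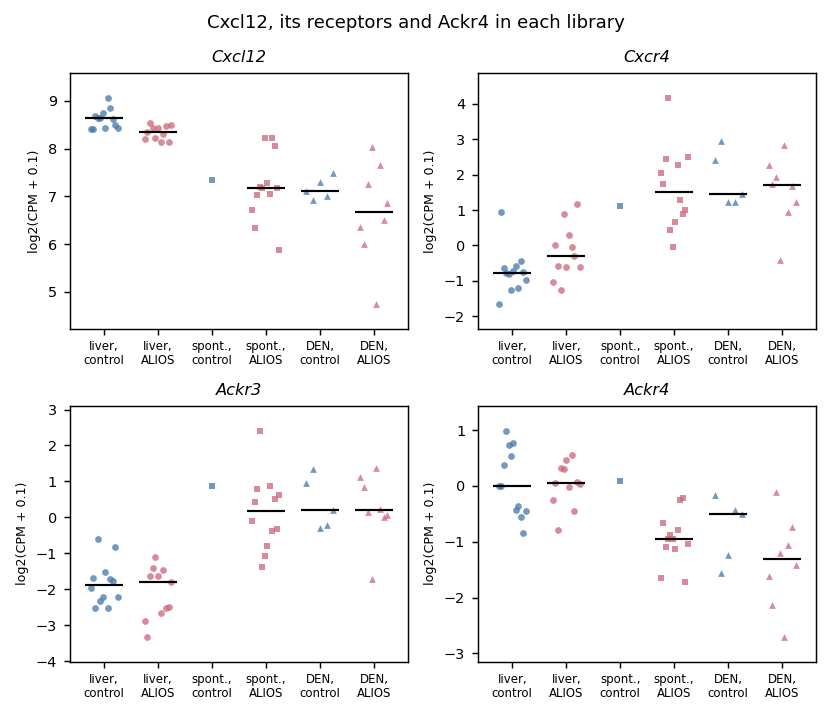
Levels of Cxcl12, Cxcr4, Ackr3 and Ackr4 in the 6 groups (x axis), 1 point per library, as log2(TMM-scaled CPM + 0.1) (y axis), with a bar at the median of each group of several libraries, control diet in blue, ALIOS in red and T1 left out. Tumours lie low for Cxcl12 and Ackr4 and high for Cxcr4 and Ackr3 relative to livers.

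Stellate and endothelial cells are sources of Cxcl12 in liver, and T cells and other leukocytes carry Cxcr4. Of 6 stellate markers, 1 was higher and 3 lower in spontaneous tumours, 1 and 3 in ALIOS DEN tumours and 2 and 3 in control diet DEN tumours. Their summed level was 79.7 to 158.2 CPM in ALIOS livers, 53.1 to 171.5 in spontaneous tumours and 72.4 to 177.5 in ALIOS DEN tumours, and 53.4 to 119.3 in control livers against 106.9 to 201.2 in control diet DEN tumours. Of 7 sinusoidal endothelial markers, 3 were higher and 1 lower in each ALIOS tumour comparison and 3 and 2 in control diet DEN tumours. Their summed level was 173.9 to 269.6 CPM in ALIOS livers, 138.1 to 346.6 in spontaneous and 113.6 to 294.5 in ALIOS DEN tumours, and 182.9 to 280.7 in control livers against 183.9 to 274.9 in control diet DEN tumours. Of 8 hepatocyte markers, 2 were higher in each tumour comparison and 5, 4 and 4 lower, while their summed level had medians of 174500, 169500 and 178600 CPM in the 3 tumour groups and 108000 and 121300 in ALIOS and control livers. Of the T cell markers 1 was higher and 1 lower of 7 tested in spontaneous tumours, 0 of 8 changed in ALIOS DEN tumours, and 3 were higher and 1 lower of 6 in control diet DEN tumours. The part of these cells in the values of Cxcl12 and its receptors was not tested.

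Ccl5 was higher on the ALIOS diet in non-tumour liver. Ccl5 held 0.256 to 3.66 CPM in control livers (median 0.421) and 0.527 to 10.8 in ALIOS livers (median 2.09). All 11 ALIOS livers were above the control median, and 5 exceeded every control liver (log2 fold change 2.12 ± 0.51, adjusted p = 0.0125, edgeR). The highest ALIOS liver for Ccl5 was N17, also the highest of its group for 20 of the 42 members. This tally, like those of N10 and T24 below, was not made over all genes. Without N17 Ccl5 stayed called, at 1.75 (adjusted p = 0.0323, edgeR), and the comparison held 2 higher and 1 lower of 26, with 6.89% of all genes called.

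Cx3cr1, the fractalkine receptor of patrolling monocytes and of some macrophages and NK cells, rose with diet by 1.45 ± 0.47 (adjusted p = 0.0459, edgeR), from 0.192 to 2.85 CPM in control livers (median 0.667) to 0.422 to 8.02 in ALIOS livers (median 1.26). The call was lost in 15 of 23 refits that left out 1 liver, with log2 fold changes of 1.04 to 1.51 and adjusted p from 0.0511 to 0.134 by edgeR. Without the control liver N10, which was the highest of its group for 13 members, 8 members were higher and 1 lower of 23, with 12.8% of all genes called. They then included Ccr2 (1.62, adjusted p = 0.0117, edgeR) and Cxcr4 (0.98, adjusted p = 0.0293, edgeR). With N10, Ccr2, the receptor of inflammatory monocytes, had 1.01 ± 0.48 (adjusted p = 0.162, edgeR) and its ligand Ccl2 0.83 ± 0.62 (adjusted p = 0.391, edgeR).

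Leukocyte markers moved with the same contrast. On the ALIOS diet 5 of 7 Kupffer cell markers were higher (summed level 154.7 to 326.9 CPM in control and 214.3 to 802.6 in ALIOS livers), as were 3 of 6 tested recruited macrophage and monocyte markers (21.3 to 138.6 and 48.5 to 195.9 CPM), 3 of 4 T cell markers (2.22 to 10.1 and 4.11 to 20.4 CPM) and 2 of 3 NK cell markers (1.16 to 4.55 and 1.48 to 10.4 CPM). None of these lists had a lower gene. The B cell list had 1 of 3 higher, the neutrophil list 0 of 4, the dendritic cell list 0 of 2, the cholangiocyte list 2 of 5, the stellate cell list 2 of 6 and the hepatocyte list 0 of 8, and 1 of 7 sinusoidal endothelial markers was lower. The part of these markers in the rise of Ccl5 and Cx3cr1 was not tested.

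In tumours of the control diet with DEN, a set of CC ligands was higher. Ccl3 and Ccl4, which attract monocytes and T cells through receptors that include Ccr1, held 0.797, 1.08, 0.816, 0.671 and 0.556 CPM (Ccl3) and 1.49, 1.53, 1.40, 0.458 and 0.758 CPM (Ccl4) in T17 to T21. Control livers held 0 to 0.270 CPM of Ccl3 and 0.0577 to 0.709 of Ccl4. All 5 tumours exceeded every control liver for Ccl3 and 4 of 5 did for Ccl4, with log2 fold changes of 3.09 ± 0.37 (adjusted p = 1.14e-06, edgeR) and 2.11 ± 0.38 (adjusted p = 0.000127, edgeR). Ccl5 held 6.77, 4.16, 8.52, 2.35 and 1.19 CPM there (2.59 ± 0.54, adjusted p = 0.000496, edgeR), and 3 of 5 exceeded every control liver. Ccr1 had 1.10 ± 0.51 (adjusted p = 0.0768, edgeR).

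On the ALIOS diet, Ccl4 was called in DEN tumours at 1.33 ± 0.45 (adjusted p = 0.0215, edgeR), a call lost without T24 (1.05, adjusted p = 0.0548, edgeR) or T26 (1.13, adjusted p = 0.057, edgeR). Ccl3 had 1.13 ± 0.55 (adjusted p = 0.0996, edgeR) and Ccl5 1.26 ± 0.58 (adjusted p = 0.078, edgeR) in those tumours, and neither was called in spontaneous tumours (0.65 ± 0.52 and 0.47 ± 0.49, adjusted p = 0.308 and 0.43, edgeR). ALIOS livers already held medians of 0.372 CPM of Ccl3 and 2.09 of Ccl5, against 0.0826 and 0.421 in control livers. Ccl3 did not pass the filter on low counts in the diet comparison of livers. Without that filter it was called higher there (2.22, adjusted p = 0.00687, edgeR), as with all groups in 1 fit (2.25, adjusted p = 0.016, edgeR). The test of the diet effect in DEN tumours against that in liver gave Ccl3 -1.96 ± 0.75 (adjusted p = 0.162, edgeR) and Ccl5 -1.32 ± 0.86 (adjusted p = 0.456, edgeR), so a difference between the diets in the response of these genes was not shown.

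Cx3cl1, the membrane-bound ligand fractalkine, was higher in all 3 tumour comparisons. ALIOS livers held 0.0703 to 1.60 CPM (median 0.386), ALIOS spontaneous tumours 0.479 to 2.80 (median 1.17) and ALIOS DEN tumours 0.547 to 11.2 (median 1.26). All tumours of both groups were above the liver median, and the groups overlapped, with log2 fold changes of 1.19 ± 0.39 (adjusted p = 0.0134, edgeR) and 2.0 ± 0.58 (adjusted p = 0.00805, edgeR). The DEN value rested on T24, with 11.2 CPM against 1.36 in the next tumour, and without it Cx3cl1 was at 0.87 (adjusted p = 0.0818, edgeR). T17 to T21 held 2.96, 2.24, 2.02, 0.916 and 0.986 CPM, all above every control liver, the highest of which held 0.481 (2.78 ± 0.36, adjusted p = 2.66e-06, edgeR). Cx3cr1 was called there, at 1.27 ± 0.44 (adjusted p = 0.0203, edgeR), and not without T21 (1.08, adjusted p = 0.0682, edgeR).

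With all libraries, edgeR called Ccl2 in no tumour comparison, with log2 fold changes of 0.36, 0.36 and 0.52 (adjusted p = 0.504, 0.54 and 0.602, edgeR). Tumours T17 to T21 held 2.19, 2.12, 1.40, 0.305 and 2.43 CPM against a control liver median of 0.577, and without N6 Ccl2 was called higher there (1.70, adjusted p = 0.00543, edgeR). DESeq2 with N6 among the libraries also called Ccl2 higher in these tumours (1.60, adjusted p = 0.00215). As its default can replace outlying counts, and the value lies near that without N6, this is not separate support. Ccr2 held 6.01, 5.11, 3.07, 3.57 and 6.02 CPM in those tumours and 0.595 to 8.55 in control livers (1.49 ± 0.53, adjusted p = 0.024, edgeR). It was lost without T17 or T21 (1.39 and 1.37, adjusted p = 0.056 and 0.0564, edgeR). Cxcl16, a membrane-bound ligand for Cxcr6 on T and NKT cells, was called there at 0.67 ± 0.18 (adjusted p = 0.00496, edgeR), while Cxcr6 had 0.40 ± 0.45 (adjusted p = 0.476, edgeR). The exons of Cxcl16 overlap those of Zmynd15, which makes its counts uncertain in the same way as those of Ackr4.

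In control diet DEN tumours, 3 of 6 tested T cell markers were higher and 1 lower (2.62 to 10.9 CPM summed, 2.22 to 10.1 in control livers), 2 of 5 NK cell markers were higher (2.30 to 7.07 and 1.16 to 4.55 CPM), and 3 of 7 recruited macrophage markers were higher (30.5 to 167.7 and 21.3 to 138.6 CPM). Their part in the CC ligand values was not tested.

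**Figure D4:**
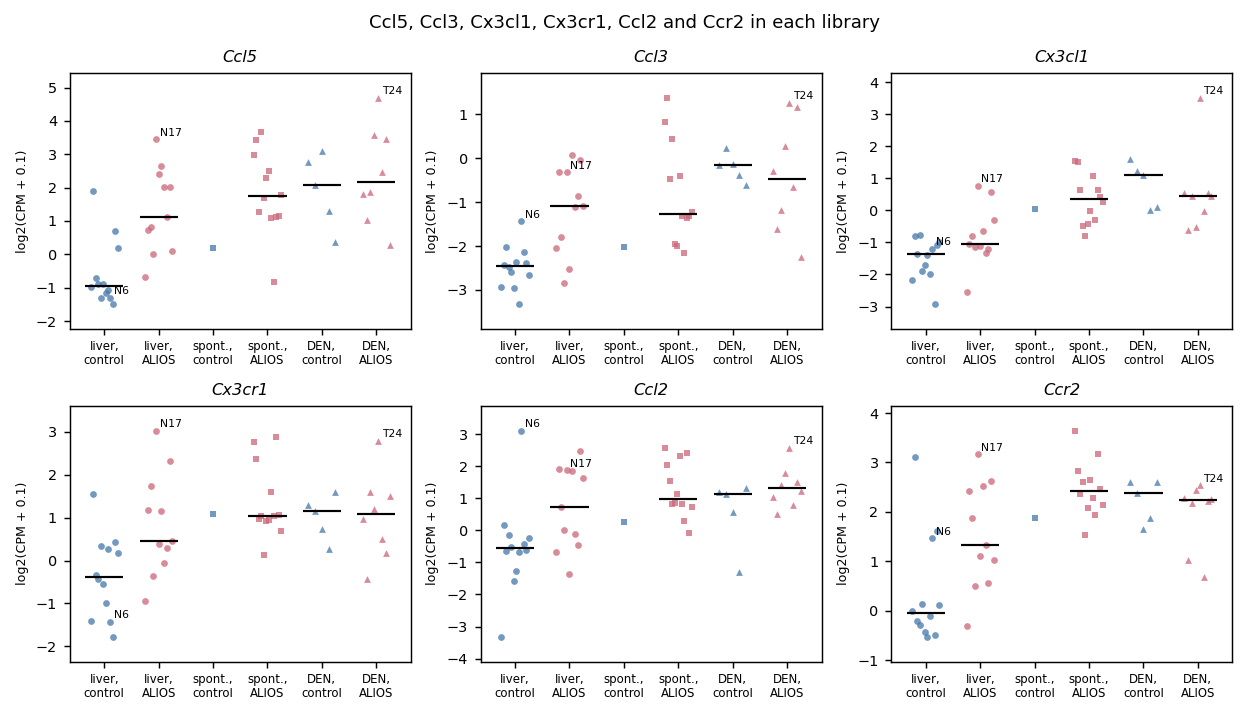
Levels of Ccl5, Ccl3, Cx3cl1, Cx3cr1, Ccl2 and Ccr2 in the 6 groups (x axis), 1 point per library, as log2(TMM-scaled CPM + 0.1) (y axis), with a bar at the median of each group of several libraries, control diet in blue, ALIOS in red and T1 left out. ALIOS livers lie above the median of control livers for Ccl5, control diet DEN tumours lie above every control liver for Ccl3, and the labelled libraries N6, N17 and T24 stand out for single genes.

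The macrophage ligands Ccl6 and Ccl24 were lower in spontaneous tumours. Ccl24 (eotaxin-2, a Ccr3 ligand made by macrophages) held 0.862 to 3.56 CPM in ALIOS livers and 0 to 2.65 in spontaneous tumours (median 0.520), with 8 of 12 below every ALIOS liver (-1.46 ± 0.47, adjusted p = 0.0121, edgeR). Ccl6 held 6.61 to 20.1 CPM in ALIOS livers and 1.79 to 14.1 in those tumours (median 4.43), again with 8 of 12 below every liver (-0.98 ± 0.35, adjusted p = 0.0213, edgeR, and -0.87 with an adjusted p of 0.0502 without T12). In control diet DEN tumours Ccl24 was at 0.332, 0.0299, 1.05, 0.305 and 0.228 CPM against 0.607 to 4.09 in control livers (-2.16 ± 0.56, adjusted p = 0.00319, edgeR). Ccl6 had -0.82 ± 0.37 there (adjusted p = 0.0724, edgeR), and DESeq2 called it lower, at -0.84 (adjusted p = 0.0344). Ccl9, the most abundant CC ligand, was called in no comparison that used all libraries, with log2 fold changes of -0.18, -0.33 and 0.05 in the 3 tumour comparisons and 0.22 with diet. It was called lower in spontaneous tumours without T14 (-0.26, adjusted p = 0.0491, edgeR) and in ALIOS DEN tumours without T16 (-0.54, adjusted p = 0.0451, edgeR).

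Kupffer cell markers were lower in the same tumours. All 7 were lower in spontaneous tumours (214.3 to 802.6 CPM summed in ALIOS livers, 18.9 to 397.0 in tumours), 2 of 7 in ALIOS DEN tumours (16.1 to 491.1 CPM) and 6 of 7 in control diet DEN tumours (25.4 to 146.2 CPM, against 154.7 to 326.9 in control livers). No marker of the list was at 0 in every library of a group. The part of these cells in the fall of Ccl24 and Ccl6 was not tested.

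The ALIOS DEN tumour T24 stood apart for many members. Whether it did so more for this family than for other genes was not tested. It had the highest level of its group for 21 of the 42 members, and among the other tumours T26 had the highest for 11. T24 held 20.3 CPM of Ccl8 (next 1.89), 60.6 of Ccl6 (next 10.3), 25.7 of Ccl5 (next 11.9) and 3.40 of Ccr1 (next 0.857), together with 3.29 of Ccr3 (next 0.609), a gene picked after its values were seen. It was the lowest of its group for Cxcl12 (26.7 CPM), Ccl9 (30.7) and Cxcl1 (6.84). Its summed recruited macrophage and monocyte markers were 340.6 CPM against a group median of 46.1, its T cell markers 26.6 against 9.96 and its NK markers 21.6 against 4.76. The summed hepatocyte markers of T24 were 81890 CPM against a group median of 169500, and T23 was lowest at 80070. The part of these cells in the chemokine values of T24 was not tested.

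Leaving T24 out changed the ALIOS DEN comparison. Ccl8, a CC ligand called at 3.04 ± 0.98 (adjusted p = 0.0157, edgeR), was at 0.78 (adjusted p = 0.402, edgeR) without it. Ccl24 and Ccl6 were instead called lower, at -1.36 (adjusted p = 0.0168, edgeR) and -1.03 (adjusted p = 0.0116, edgeR), where they had been -0.85 ± 0.48 and 0.10 ± 0.51. DESeq2 with T24 among the libraries also called Ccl6 lower, at -0.96 (adjusted p = 0.00459), but not Ccl24. As its default can replace outlying counts, and the Ccl6 value lies near that of edgeR without T24, this is not separate support. Without T24 the comparison held 7 members higher and 6 lower of 35, with 52.5% of all genes called. Cxcl14, Ackr3, Cxcl13, Cxcr4, Cxcl10, Cxcl9 and Cxcl11 stayed among the 7 called higher. In control diet DEN tumours and with diet in liver, Ccl8 did not pass the filter on low counts. Without that filter it was called higher in both, at 3.53 (adjusted p = 0.000915, edgeR) and 3.06 (adjusted p = 0.0256, edgeR). With all groups in 1 fit only the former was called (3.52, adjusted p = 0.00871, edgeR). Of the control diet DEN tumours, 4 of 5 exceeded every control liver for Ccl8.

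**Figure D5:**
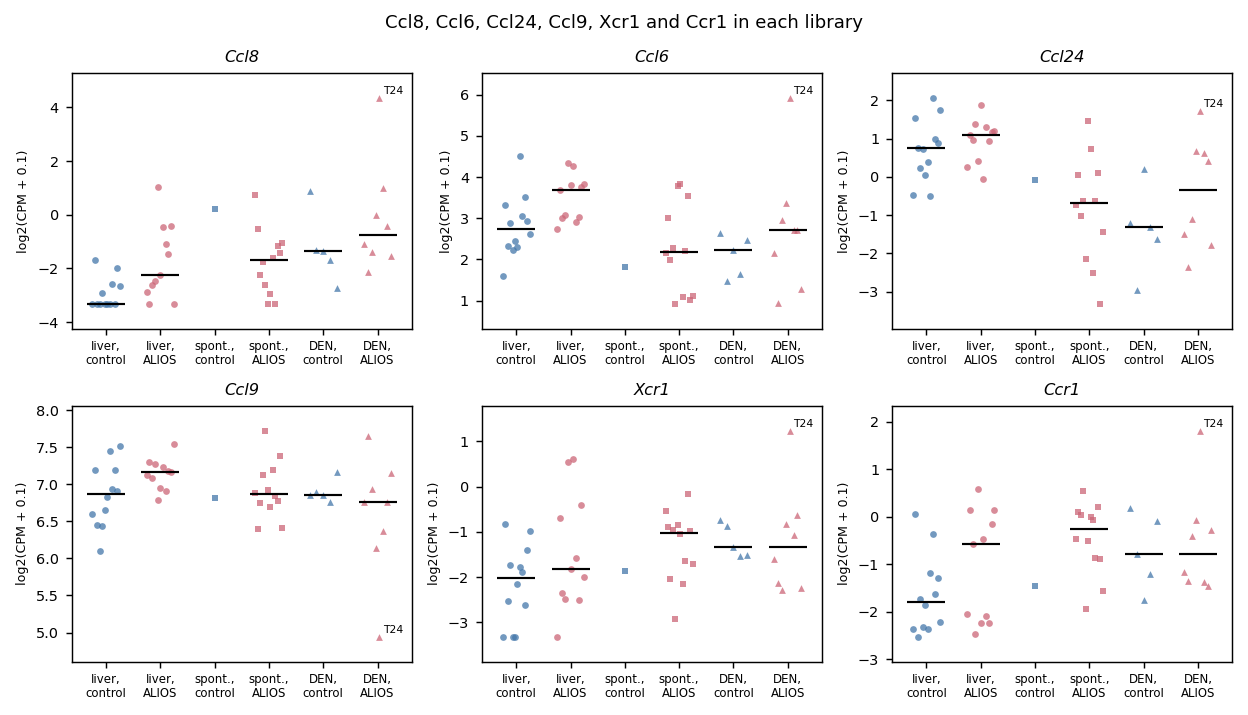
Levels of Ccl8, Ccl6, Ccl24, Ccl9, Xcr1 and Ccr1 in the 6 groups (x axis), 1 point per library, as log2(TMM-scaled CPM + 0.1) (y axis), with a bar at the median of each group of several libraries, control diet in blue, ALIOS in red and T1 left out. The labelled tumour T24 stands at 20.3 CPM of Ccl8 and 60.6 of Ccl6, above all other libraries, and is the lowest of its group for Ccl9.

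The neutrophil attractants Cxcl1 and Cxcl2 showed wide spread and were called in no comparison that used all libraries. Cxcl1 ranged from 3.01 to 134.0 CPM in control livers and from 7.42 to 123.7 in ALIOS livers, and the 3 tumour groups lay within 6.84 to 80.3 CPM. Its log2 fold changes were -0.02 with diet and 0.38, -0.15 and 0.45 in the tumour comparisons (adjusted p = 0.984, 0.421, 0.821 and 0.588, edgeR), and in spontaneous tumours it was called at 0.81 without N23 (adjusted p = 0.0497, edgeR). Cxcl2 and their receptor Cxcr2 were not called in any comparison or alternative. Cxcl5 had medians of at most 0.163 CPM in every group of several libraries and did not pass the filter on low counts. The neutrophil marker list had no called gene in the tumour comparisons.

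Several lymphoid axes were near the limit of the depth. Ccl25, a ligand of Ccr9, was lower in control diet DEN tumours by a small margin (-0.32 ± 0.13, adjusted p = 0.0484, edgeR), a call lost without T17, T18, T19 or N6 (-0.25 to -0.35, adjusted p from 0.0528 to 0.148), and its exons overlap those of Elavl1. Ccl27a was lower in ALIOS DEN tumours (-0.84 ± 0.31, adjusted p = 0.0314, edgeR), with 0.0643 to 0.364 CPM against 0.141 to 0.476 in livers, and was lost without T22, T26 or T27 (-0.76 to -0.83, adjusted p from 0.0502 to 0.0616). It was chosen for mention after its values were seen, and its exons overlap those of Il11ra1. Ccl22, a ligand of Ccr4, had 1.09 ± 0.49 in ALIOS DEN tumours (adjusted p = 0.0703, edgeR). Without the filter on low counts, Ccl22 was called higher with diet in liver (1.93, adjusted p = 0.0448, edgeR). The same held in control diet DEN tumours (2.11, adjusted p = 0.012, edgeR), and both calls were also made with all groups in 1 fit. Xcr1, the receptor of cross-presenting dendritic cells, had -0.32 and 0.34 in the ALIOS tumour comparisons (adjusted p = 0.644 and 0.715, edgeR).

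Ccl20, Cxcl5 and Ccr3 passed the filter on low counts in no comparison. Ccl20 had a median of 0 CPM in control livers and 0.332 in control diet DEN tumours (0.332, 1.17, 0.131, 0.153 and 0.556 CPM), of which each was above the highest control liver at 0.123. Ccr7, the homing receptor of mature dendritic and naive T cells, had medians of 0.105 CPM in control livers, 0.184 in ALIOS livers, and 0.295, 0.336 and 0.351 in ALIOS spontaneous, control diet DEN and ALIOS DEN tumours. Xcl1 and Ccr9 had medians of at most 0.217 and 0.362 CPM in the groups of several libraries. The exons of Xcl1 and Ccr9 overlap those of other genes, so their counts are uncertain too. Without the filter on low counts, Ccl20 and Ccr7 were called higher, at 2.13 and 0.97 in ALIOS spontaneous tumours (adjusted p = 0.0327 and 0.0474, edgeR) and at 3.98 and 1.39 in control diet DEN tumours (adjusted p = 6.07e-05 and 0.00516, edgeR). Cxcl5 was called higher in control diet DEN tumours without the filter (2.06, adjusted p = 0.0372, edgeR). Likewise Ccr3 was called higher in ALIOS DEN tumours (2.14, adjusted p = 0.0438, edgeR), where T24 held 3.29 CPM and the next tumour 0.609. All of these calls were also made with all groups in 1 fit, which added Ccr7 in ALIOS DEN tumours (1.04, adjusted p = 0.0275, edgeR). In ALIOS DEN tumours Ccr7 passed the filter and was called without T16 or T25 (1.23 and 1.22), and Ccr9 without T23, T25 or T27 (1.32, 1.26 and 1.27). Xcl1 gained no call. Of 6 dendritic cell markers, 3 of 5 tested were higher in spontaneous tumours, 3 of 6 in ALIOS DEN tumours and 2 of 5 in control diet DEN tumours, with none lower.

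Between kinds of tumour, no member was called. DEN against spontaneous tumours on the ALIOS diet gave 0 calls among 39 members and 0% of 14845 genes, with 3 members and 1079 genes at an unadjusted p under 0.05, and DESeq2 called 75 genes but no member. The members with such a p were Ccl8 (3.29 ± 0.93, adjusted p = 0.232, edgeR), Ccl27a (-1.29 ± 0.37, adjusted p = 0.24, edgeR) and Cxcl9 (0.90 ± 0.39, adjusted p = 0.596, edgeR). Ackr3, Cxcl14 and Cxcr4 had -0.03 ± 0.48, 0.46 ± 0.47 and -0.34 ± 0.50. Standard errors of this size leave a difference in either direction possible.

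ALIOS against control diet within DEN tumours gave 0 calls among 37 members and 0.0134% of 14944 genes, with 2 members at an unadjusted p under 0.05, namely Cxcl17 and Cxcl14 (-0.64 ± 0.27, adjusted p = 0.526, edgeR). In all, 1273 genes had such a p and DESeq2 called 155 genes but no member. The interaction, which compares the diet effect in DEN tumours with that in liver, gave 0 calls among 39 members and 2.27% of 15606 genes (1.04% higher and 1.23% lower), with Ccl3 alone under an unadjusted p of 0.05, as did 2617 genes in all, and DESeq2 called no member. Without T24, Cx3cl1 was called in the interaction at -1.92 (adjusted p = 0.0481, edgeR), with 4.71% of all genes called.

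Genes that carry the chemokine receptor signal were examined as a list of 40 in the table. With diet in liver 14 were higher and 1 lower of 39 tested, among them the leukocyte GTPase Rac2 (1.21), its activators Vav1 (1.02) and Dock2 (1.01), the G protein subunit Gnai1 (1.48) and the signal terminator Rgs2 (1.07), with Tiam1 at -1.06. In spontaneous tumours 11 were higher and 5 lower of 39. The receptor kinase Adrbk2 rose by 2.06, Rgs19 by 1.01 and paxillin (Pxn) by 0.82, and the kinase Ptk2b (-1.05), Gnai1 (-1.05) and Prex1 (-0.84) were lower. ALIOS DEN tumours had 14 higher and 4 lower of 40. Control diet DEN tumours had 20 higher and 3 lower of 39, led by Rgs2 at 4.55 ± 0.28 (adjusted p = 1.9e-10, edgeR). In the same order, 11.2%, 52.8%, 47.5% and 51.7% of all genes were called, so in the tumour comparisons the list's counts do not set it apart. The median log2 fold changes of the list were 0.14, 0.06, 0.17 and 0.52, against -0.02, 0.01, 0.08 and 0.03 over all genes. In the interaction 1 of 40 was lower, Rgs2, at -2.62 ± 0.49 (adjusted p = 0.0065, edgeR).

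A list of 17 other chemoattractant genes covers lipid, complement, peptide and adipokine attractants. With diet 2 of 14 tested were higher, the formyl peptide receptor Fpr1 (1.02) and the C5a receptor C5ar1 (0.85). In spontaneous tumours 3 were higher and 5 lower of 14, with Fpr1 (-1.37), Fpr2 (-1.20) and C5ar1 (-0.82) lower and the leukotriene receptor Ltb4r1 (0.82) higher. ALIOS DEN tumours had 3 higher and 2 lower of 14, and control diet DEN tumours 4 higher and 2 lower of 15. In the latter the atypical chemerin receptor Ccrl2 was higher (1.46 ± 0.37, adjusted p = 0.00257, edgeR) and the sphingosine phosphate receptor S1pr1 lower (-0.98 ± 0.14, adjusted p = 7.85e-06, edgeR). Of all genes, 11.2%, 52.8%, 47.5% and 51.7% were called in these 4 comparisons, so the counts do not set the list apart. The median log2 fold changes of the list were 0.33, -0.27, 0.02 and 0.05 in the 4 comparisons. S1pr1 was also the 1 of 16 called in the interaction, where it was higher (0.64 ± 0.17, adjusted p = 0.0362, edgeR).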

How the data were processed

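RNA-seq measured transcripts in 50 libraries from liver and liver tumours of C3H/He mice. Per the paper and the submitters' processing notes, the authors made stranded mRNA libraries from RNA with an integrity number over 8.0, mapped paired reads to mm10 with STAR and counted them on the exons of Gencode M6 genes with HTSeq; versions and the strand option are not given in the sources used here. The deposited table holds raw counts of reads per gene, not normalised. Every row names a gene.

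Samples were grouped by their labels. The members, gene lists, tests and alternatives were chosen with earlier results of these data known. Of the members, those named with values are the partners of fixed ligand and receptor axes, the 12 with the smallest adjusted p among those called in each comparison, and the 6 most abundant per kb in control liver, 37 of 42 in all. Values of 1 of these are not reported here, though it stays in the counts. Lists were made of markers for Kupffer cells, recruited macrophages, neutrophils, T, NK and B cells, dendritic cells, sinusoidal endothelium, stellate cells, hepatocytes, cholangiocytes and kidney, and of chemokine receptor signalling and other chemoattractant genes.

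For 7 comparisons, counts of the groups compared were tested with edgeR 4.0.16 (filterByExpr, TMM, glmQLFTest) in R 4.3.3, 2-sided, with Benjamini-Hochberg adjustment over all genes tested and a call at 0.05. Fold changes are shown as log2 ± standard error. Levels are TMM-scaled CPM, per kb of Gencode M21 exon where genes are compared. Alternatives were RLE size factors, DESeq2 1.42.0, no filter on low counts, all groups in 1 fit, T1 included, spontaneous tumours of both diets against all livers, a replicate block and leaving out single libraries. DESeq2 ran at its default settings, which replace outlying counts in larger groups. The edgeR steps were tested on simulated data. Same-numbered samples were not alike in their deviations from the group means (correlations of -0.21 to 0.0437, over 6 pairs, of which 0 correlated best with their own number). With 2 spontaneous and 4 DEN pairs, this check cannot tell whether samples share a mouse. No 2 libraries of a group were alike enough to be 1 library deposited again (smallest chi-square per gene 13.0). Promoter windows were read from RefSeq. The counts carry no molecular identifiers, so intervals and floors cover counting error only.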

Additional observations from a re-analysis of the deposited data

Results flagged for a closer look

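Of 71 group and member combinations with 4 to 10 libraries, 7 held a highest or lowest library far from the others by Dixon's test, where chance flags about 1 in 20, or 3.5. In 5 of the 7 that library was the ALIOS DEN tumour T24. It held 2.49 CPM of Ccl7 (next 0.467), 11.2 CPM of Cx3cl1 (next 1.36), 3.40 CPM of Ccr1 (next 0.857) and 2.26 CPM of Xcr1 (next 0.547), each the highest, and the lowest level of Ackr1, at 0.340 CPM (next 1.27). In the same group T23 held the lowest Ackr3, at 0.208 CPM (next 0.904). Among the control diet DEN tumours T20 held the lowest Ccl2, at 0.305 CPM (next 1.40).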

How the results depend on the processing

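Of 45 calls of members, 32 were kept in every alternative other than the replicate block, and no called gene changed direction in an alternative. RLE size factors lost none of the calls. DESeq2 called 8 members higher with diet in liver, where it called 2200 of 13723 genes. It called 5 lower in ALIOS DEN tumours, with 7106 of 14434 genes called. Without the filter on low counts 5 were higher with diet, with 1365 of 26023 genes called. With all groups in 1 fit 0 were lower with diet, 1 was higher (Ccl8) and 1 lower (Ccl27a) in DEN against spontaneous tumours, and 1 was lower with diet in DEN tumours (Cxcl17). In the same order, that fit called 623, 403 and 296 of 17728 genes. Pooling the spontaneous tumours of both diets against all livers gave 12 higher, with 8579 of 14370 genes called. That fit had no diet term, and its tumours were nearly all from ALIOS mice while its livers came from both diets. Diet and tumour therefore cannot be told apart in the calls it added. The labels' numbers are shared between groups, but the labels do not say that they mark the same mouse. A replicate block on them kept only numbers found in both groups. These were 2 spontaneous tumours with 2 livers, and 4 ALIOS DEN tumours with 4 livers. It gave 0 members higher and 0 lower in spontaneous tumours, with 379 of 14432 genes called. In ALIOS DEN tumours it gave 3 higher and 0 lower, with 1664 of 14268 genes called. With so few samples, these losses do not show an effect of pairing.

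Refits with 1 library left out covered each library of both groups for diet in liver, spontaneous tumours and diet in DEN tumours. For the other comparisons they covered the DEN tumours alone, and for the interaction the control diet DEN tumours and T24. Members called ranged from 2 to 9 higher and 1 to 1 lower for diet, 7 to 10 and 3 to 5 for spontaneous tumours, 7 to 12 and 2 to 6 for ALIOS DEN tumours and 11 to 14 and 2 to 5 for control diet DEN tumours. They were 0 to 0 in both directions for DEN against spontaneous tumours and for diet in DEN tumours, and 0 to 0 higher and 0 to 1 lower in the interaction. Over the same refits, calls among all genes ranged from 949 to 2343 for diet and 7056 to 7919 for spontaneous tumours. The ranges were 6270 to 7610 for ALIOS DEN tumours and 6986 to 7637 for control diet DEN tumours. For DEN against spontaneous tumours, diet in DEN tumours and the interaction they were 0 to 15, 0 to 19 and 174 to 732. Leaving out N6, chosen after seeing the data, gave 17 higher in control diet DEN tumours, with 52% of all genes called. No other liver was left out there. Without N13, 9 were higher with diet, by the added calls of Ccl4, Cx3cl1, Cxcl16, Ackr1, Cxcr3 and Cxcr6, and without N10, 8 were. The alternatives added 105 calls in all, of 30 members, 54 of them with a library left out. Depth limits genes under about 10 counts per library, and 5 control diet DEN tumours limit every comparison that uses them.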

Other observations

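T7, the single control diet spontaneous tumour, entered only alternative fits (both diets pooled, all groups in 1 fit) and no comparison as first fitted. It held 19.8 CPM of Cxcl14, 10.9 of Cxcl13, 10.8 of Cxcl17 and 163.2 of Cxcl12, each outside the range of the 12 control livers and none with a replicate. Its Ccl5 was 1.05 CPM and its Cxcl9 15.2 CPM, both within that range. The kidney marker list had 1 gene tested in control diet DEN tumours against liver, called higher. The summed level of the list was 4.78 to 18.7 CPM there and at most 0.109 in control livers, while Kap, Umod, Slc34a1 and Slc22a6 were at 0 in those tumours. The other tumours held it too, at 0.211 to 21.9 CPM (median 3.96) in ALIOS spontaneous tumours and 15.6 in T7. ALIOS DEN tumours held 0.0358 to 16.1 CPM (median 11.8), and ALIOS livers 0 to 5.88 (median 0).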
